A study of Homo sapiens with 8 samples.

Results

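The 10 genes described here make or read bone morphogenetic protein (BMP) signals. They were picked by symbol as a pathway set, and they are 10 of the 62086 genes in the deposited tables. BMP2, BMP4 and BMP7 encode ligands, NOG encodes the secreted antagonist noggin, SMAD6 and BAMBI encode inhibitors inside the cell and at the membrane, and ID1, ID2, ID3 and ID4 encode inhibitors of DNA binding. All 10 symbols were found once each in the tables, 9 of the genes passed the filter on low counts, and NOG did not.

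BG01 is a line of human embryonic stem cells (hESCs), grown here in mTeSR, a feeder-free medium. Cells received 5 µg/mL of anti-M8nAb, an antibody that neutralizes the secreted glycoprotein MFG-E8, or 5 µg/mL of normal mouse IgG as isotype control, for 12 or 24 h. RNA sequencing gave 2 libraries in each of 4 groups (anti-M8nAb 12 h, IgG 12 h, anti-M8nAb 24 h and IgG 24 h), 8 in all. All groups are of 1 line, none was left without antibody, and the labels call the 2 libraries of a group biological replicates but name no separate cultures. The p-values therefore cover the spread between the libraries sequenced, which may be technical.

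BMPs are secreted dimers that bind type I and type II receptor kinases. The receptors phosphorylate SMAD1, SMAD5 and SMAD9, which enter the nucleus with SMAD4 and switch on targets, among them the ID genes and the feedback inhibitors SMAD6, SMAD7 and BAMBI. ID proteins lack a DNA-binding region and hold basic helix-loop-helix (bHLH) transcription factors, such as the E proteins TCF3, TCF4 and TCF12, in inactive pairs. In hESCs, added BMP4 is known to drive the cells toward trophoblast-like, amnion-like or mesodermal fates, and BMP antagonists are used to steer them toward neuroectoderm.

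Each library held 21010400 to 21792716 counts in genes. MFGE8, which encodes the protein that the antibody blocks, had 944 and 903 CPM (counts scaled to a common library size by TMM) with anti-M8nAb at 12 h, against 811 and 823 CPM with IgG. The 24 h levels were 929 and 935 CPM with anti-M8nAb, against 823 and 860 CPM with IgG. By edgeR's quasi-likelihood test with Benjamini-Hochberg adjustment, MFGE8 was higher with anti-M8nAb at both times. The log2 fold changes were 0.18 at 12 h (adjusted p = 0.00152) and 0.15 at 24 h (adjusted p = 0.0052). The antibody is directed at the protein, so the transcript level is no check of the labels, and why it differed was not tested. All 10 markers of undifferentiated hESCs passed the filter, and POU5F1, the gene of the pluripotency factor OCT4, had 1506 to 1570 CPM in the anti-M8nAb libraries and 1309 to 1401 CPM in the IgG libraries. Not all of these markers went this way, and at 24 h 3 of the 10 were called higher and 3 lower. NANOG had 90.1 and 89.0 CPM with anti-M8nAb at 24 h, against 107.7 and 104.7 CPM with IgG. SOX2 had 204 and 195.5 CPM, against 224 and 256 CPM, and ZFP42 had 179 and 161 CPM, against 235 and 239 CPM. In bulk RNA, fewer cells of a type and less RNA per cell cannot be told apart.

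The stretches of DNA before the start sites of 3 ID genes and of BAMBI are shown because ID1, ID3 and ID4 were the ID genes called at both times, ID1 and ID3 as lower and ID4 as higher with anti-M8nAb, and because BAMBI held the most matches to letters that SMADs are known to bind. The sequences are those of RefSeq on GRCh38.p14, read 5′ to 3′ on the strand of the gene up to the base before the annotated gene. Capitals mark 4 motifs. GGCGCC is the GC-rich motif that BMP-activated SMADs are known to bind. GTCTG is the short SMAD-binding motif, which reads CAGAC on the opposite strand. CCAAT, bound by the factor NF-Y, reads ATTGG when reversed, and the TATA box TATAAA reads TTTATA. ID1 lies at chr20:31605283-31606515 on the plus strand, and the bases shown are chr20:31605039-31605282. ID3 lies at chr1:23557926-23559501 on the minus strand, and the bases shown are chr1:23559502-23559751. ID4 lies at chr6:19837370-19842197 on the plus strand, and the bases shown are chr6:19837120-19837369. BAMBI lies at chr10:28677510-28682932 on the plus strand, and the bases shown are chr10:28677271-28677509.
ID1: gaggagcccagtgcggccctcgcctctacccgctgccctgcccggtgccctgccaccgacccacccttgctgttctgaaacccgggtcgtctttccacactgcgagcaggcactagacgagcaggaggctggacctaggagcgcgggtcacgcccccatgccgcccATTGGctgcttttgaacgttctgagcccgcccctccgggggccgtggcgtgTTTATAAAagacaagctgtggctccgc
ID3: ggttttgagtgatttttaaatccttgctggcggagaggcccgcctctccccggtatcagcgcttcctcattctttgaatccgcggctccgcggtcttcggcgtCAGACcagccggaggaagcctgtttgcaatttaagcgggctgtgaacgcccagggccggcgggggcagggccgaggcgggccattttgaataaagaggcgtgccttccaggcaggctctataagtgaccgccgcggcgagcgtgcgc
ID4: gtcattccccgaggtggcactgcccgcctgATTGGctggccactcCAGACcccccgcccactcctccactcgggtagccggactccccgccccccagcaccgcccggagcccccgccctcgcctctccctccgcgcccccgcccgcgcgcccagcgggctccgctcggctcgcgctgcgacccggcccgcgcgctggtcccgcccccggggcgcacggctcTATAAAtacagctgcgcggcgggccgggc
BAMBI: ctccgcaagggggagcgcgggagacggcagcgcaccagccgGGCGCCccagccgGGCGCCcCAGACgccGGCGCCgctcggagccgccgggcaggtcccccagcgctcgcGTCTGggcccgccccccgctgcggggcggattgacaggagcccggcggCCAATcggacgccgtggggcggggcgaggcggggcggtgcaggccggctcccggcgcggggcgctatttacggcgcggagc

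The windows differed in these letters. Positions below count from the RefSeq start, which for ID1 and BAMBI lies inside the annotated gene. For these genes they therefore do not count back from the last base shown. In 250 bases before the RefSeq start, ID1 held no GGCGCC and no GTCTG, and its TATAAA began at position -31, counted back from -1 at the base before the start. A reversed copy that began at -33 shared 4 of its bases. ID3 held 1 GTCTG in reverse at -147, and ID4 held 1 in reverse at -205 and a TATAAA at -29. BAMBI held 3 GGCGCC and 2 GTCTG with first bases at positions -209 to -140, and its window was 81.2% G and C, against a median of 58.0% over all windows. Of 35116 promoter windows of this length, 16.4% held GGCGCC, 38.0% held GTCTG, 32.0% held CCAAT and 10.7% held TATAAA on either strand. A match here describes letters only. RefSeq start sites were matched for 7 of the 10 genes, and the others were BMP2, BMP7 and NOG.

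Of the ligand genes, BMP2 was the only one of the 3 called at 24 h, where its level with anti-M8nAb was about that of both 12 h groups while the level with IgG was higher. BMP2 (chromosome 20, 6767686 to 6780246), a ligand that signals in early embryos and in bone, had 3.73 and 3.47 CPM in hESCs given anti-M8nAb for 12 h, against 3.55 and 3.45 CPM with IgG. At 24 h it had 3.36 and 3.85 CPM with anti-M8nAb, against 7.51 and 6.43 CPM with IgG. The 12 h groups overlapped, and at 24 h both anti-M8nAb libraries lay below both IgG libraries. Such a gap between the libraries was common. Over all genes tested, both anti-M8nAb libraries lay above both IgG libraries for 32.9% at 12 h and 34.8% at 24 h. They lay below for 33.3% and 34.2%. The log2 fold change was 0.04 (SE 0.22, adjusted p = 0.913) at 12 h and -0.95 (SE 0.21, adjusted p = 0.000193) at 24 h by edgeR's quasi-likelihood test with Benjamini-Hochberg adjustment, which is also the test of every adjusted p that follows.

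BMP4, the ligand most used to direct the differentiation of hESCs, was called at 12 h, as higher, and its difference between the times did not pass the test (-0.44, adjusted p = 0.252). The gene (chromosome 14, 53949736 to 53958761) had 9.42 and 9.02 CPM with anti-M8nAb and 6.36 and 4.51 CPM with IgG at 12 h. By 24 h the values were 9.44 and 9.69 CPM with anti-M8nAb and 7.28 and 8.02 CPM with IgG. The anti-M8nAb libraries lay above the IgG libraries at both times, with 1 IgG 12 h library well under the other. BMP4 rose by 0.76 on the log2 scale at 12 h (SE 0.17, adjusted p = 0.00051). Without that library the value was 0.55 and the call was lost, in a fit with 1 IgG library left at 12 h. At 24 h the value was 0.32 (SE 0.17, adjusted p = 0.112). Of the BMP4 exon sequence, 16.3% overlaps ENSG00000287156 on the other strand, a gene with 0 to 15 counts in these libraries.

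BMP7, a ligand known for its roles in kidney and eye, was not called at either time. The gene (chromosome 20, 57168753 to 57266641) had 10.7 and 8.68 CPM with anti-M8nAb and 10.97 and 8.83 CPM with IgG at 12 h. The 24 h libraries had 12.2 and 13.9 CPM with anti-M8nAb, against 13.7 and 14.6 CPM with IgG. The groups overlapped at both times. The log2 fold changes were -0.03 (95% interval -0.33 to 0.27, adjusted p = 0.900) and -0.12 (95% interval -0.40 to 0.16, adjusted p = 0.522).

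NOG (chromosome 17, 56593699 to 56595611), whose product binds BMPs outside the cell, was near the limit of detection. It had 7 and 5 counts in the anti-M8nAb 12 h libraries, 5 and 2 in the IgG 12 h libraries, 1 and 2 in the anti-M8nAb 24 h libraries and 7 and 2 in the IgG 24 h libraries. A difference was not detectable at this depth, and no fold is given.

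Both inhibitors of the pathway were called at 1 time each, as higher, SMAD6 at 24 h and BAMBI at 12 h, and the genes were not tested against each other. SMAD6 (chromosome 15, 66702236 to 66782849) encodes an inhibitory SMAD that competes with the receptor SMADs and is itself switched on by BMP in many cells. It had 2.85 and 2.36 CPM with anti-M8nAb and 3.50 and 2.71 CPM with IgG at 12 h, and the groups overlapped. After 24 h SMAD6 had 8.71 and 8.04 CPM with anti-M8nAb, above the 5.37 and 4.63 CPM with IgG. The log2 fold change was -0.25 (SE 0.24, adjusted p = 0.446) at 12 h, and SMAD6 rose by 0.74 at 24 h (SE 0.20, adjusted p = 0.00174), a direction opposite to that of ID1 and ID3. The 24 h call did not hold on the authors' FPKM, where limma gave 0.28 on log2(FPKM + 1) (adjusted p = 0.0602).

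BAMBI encodes a membrane protein shaped like a type I receptor without the kinase, and it dampens signals of BMP and related ligands. It had 39.8 and 41.7 CPM with anti-M8nAb and 29.4 and 30.6 CPM with IgG at 12 h, so that both treated libraries were above both controls. At 24 h it had 34.7 and 29.8 CPM with anti-M8nAb and 32.7 and 35.6 CPM with IgG, and the groups overlapped. BAMBI rose by 0.44 on the log2 scale at 12 h (SE 0.09, adjusted p = 0.000187), and at 24 h the value was -0.08 (SE 0.09, adjusted p = 0.509).

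**Figure D1:**
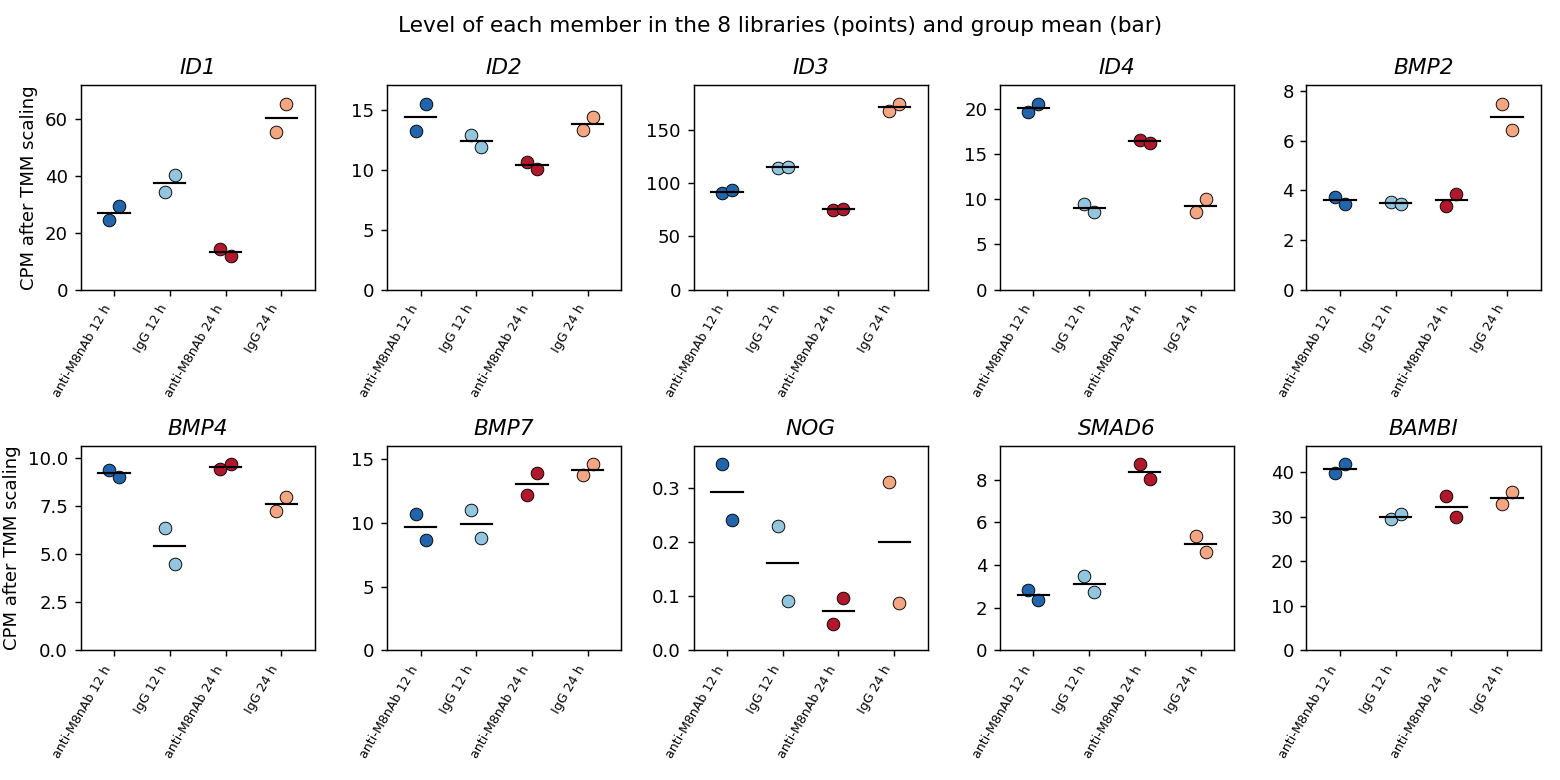
Level of the 10 genes in CPM after TMM scaling (vertical axis, from 0, each panel with its own scale), with 1 point per library and a bar at the mean of each group of 2 libraries. ID1 sits at 14.3 and 12.0 CPM in the anti-M8nAb 24 h libraries and at 55.5 and 65.4 CPM in the IgG 24 h libraries, ID4 is above its controls at both times, and NOG stays under 0.4 CPM.

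The ID genes split. ID1 and ID3 were lower with anti-M8nAb at both times and further apart from their controls at 24 h, ID4 was higher at both times, and ID2 was called at 24 h alone, as lower. ID1, a target that responds to BMP within hours in many cells, had 24.5 and 29.4 CPM with anti-M8nAb and 34.4 and 40.3 CPM with IgG at 12 h. At 24 h it had 14.3 and 12.0 CPM with anti-M8nAb, against 55.5 and 65.4 CPM with IgG. The libraries of the groups were apart at both times, and the 24 h treated libraries were the lowest of all 8. ID1 fell by 0.47 on the log2 scale at 12 h (SE 0.10, adjusted p = 0.000345) and by 2.20 at 24 h (SE 0.11, adjusted p = 2.72e-21), which was 4.60-fold lower. Without IgG 12 h replicate 2 the 12 h value was -0.34 and the call was lost, in a fit with 1 IgG library left at 12 h. The 24 h call held whichever of the 8 libraries was left out.

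ID3, the most abundant of the ID transcripts here, had 90.7 and 93.2 CPM with anti-M8nAb and 114 and 115 CPM with IgG at 12 h. The 24 h libraries stood at 75.1 and 76.3 CPM with anti-M8nAb, against 168 and 175 CPM with IgG. Replicates lay close together and the groups did not overlap at either time. ID3 fell by 0.32 on the log2 scale at 12 h (SE 0.06, adjusted p = 4.76e-05) and by 1.18 at 24 h (SE 0.06, adjusted p = 1.27e-20), which was 2.26-fold lower.

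ID4, which in other cells can oppose the remaining ID proteins, went the other way. It had 19.7 and 20.6 CPM with anti-M8nAb and 9.45 and 8.65 CPM with IgG at 12 h. After 24 h ID4 stood at 16.6 and 16.2 CPM with anti-M8nAb and 8.62 and 9.999 CPM with IgG. All 4 treated libraries were above all 4 controls. ID4 rose by 1.15 on the log2 scale at 12 h (SE 0.13, adjusted p = 1.32e-09), a 2.23-fold difference, and by 0.82 at 24 h (SE 0.13, adjusted p = 1.73e-06).

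ID2 (chromosome 2, 8678845 to 8684461) had 13.25 and 15.6 CPM with anti-M8nAb and 12.95 and 11.9 CPM with IgG at 12 h, with the treated libraries just above the controls. By 24 h ID2 had 10.7 and 10.1 CPM with anti-M8nAb and 13.4 and 14.5 CPM with IgG, with the treated libraries below. The log2 fold change was 0.21 (SE 0.13, adjusted p = 0.229) at 12 h, and ID2 fell by 0.42 at 24 h (SE 0.14, adjusted p = 0.0104). The 24 h call was lost without IgG 24 h replicate 2 (-0.36, adjusted p = 0.08) and without anti-M8nAb 24 h replicate 2 (-0.38, adjusted p = 0.0718).

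Counted together, 3 of the 9 genes tested rose at 12 h (ID4, BMP4 and BAMBI), beside 15.8% of all 20165 genes tested, and 2 fell (ID1 and ID3), beside 16.4%. With a change of at least 2-fold as well, 1 rose (ID4), beside 3.4% of all genes, and 0 fell, beside 2.97%, while 2 fell with no threshold on the fold. At 24 h, 2 rose (ID4 and SMAD6), beside 21.2% of all genes, and 4 fell (ID1, ID2, ID3 and BMP2), beside 21.3%. Past 2-fold, 0 rose, beside 4.76%, and 2 fell (ID1 and ID3), beside 4.84%. The median log2 fold change of the 9 was 0.04 at 12 h and -0.12 at 24 h, against 0.0015 and 0.0034 over all genes. The set as a whole therefore had members in both directions at both times, and a large share of all genes was called beside it. The libraries of the treatments did not overlap for 6 of the 9 genes at 12 h and 7 at 24 h, beside the shares of all genes given with BMP2.

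**Figure D2:**
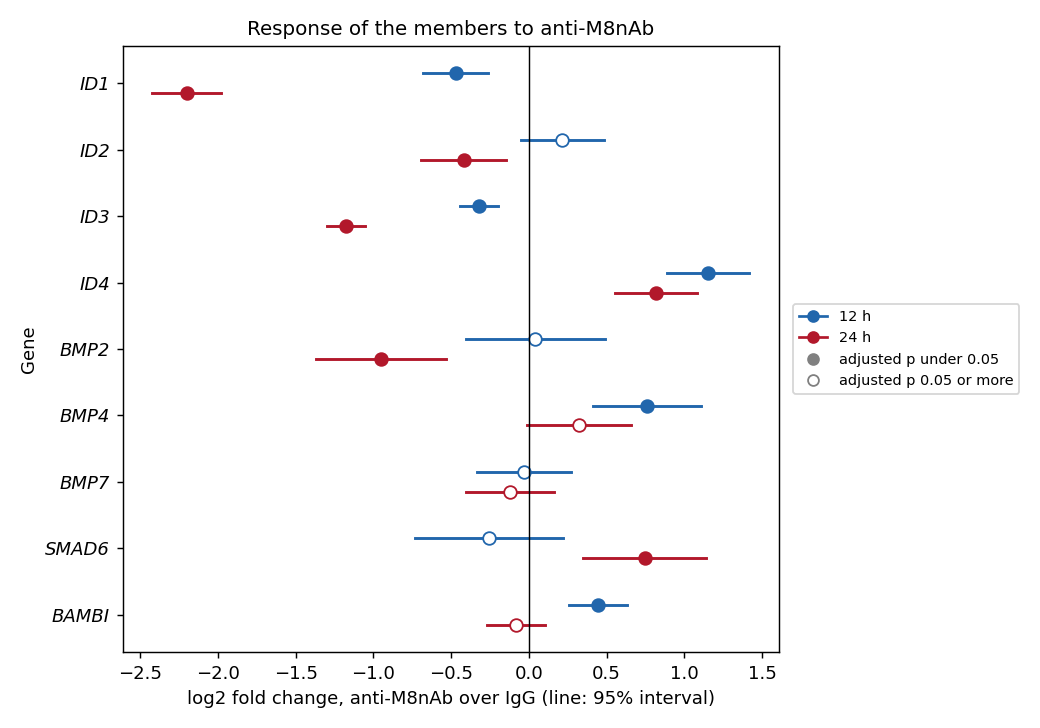
The log2 fold change of anti-M8nAb over IgG (horizontal axis) for the 9 genes tested, at 12 h and at 24 h, with lines for the 95% interval and filled points for an adjusted p under 0.05. ID1 lies at -0.47 and -2.20 and ID3 at -0.32 and -1.18, both left of 0, ID4 lies at 1.15 and 0.82, and BMP7 crosses 0 at both times.

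The response at 24 h was set against that at 12 h by a test of the difference itself. The difference (24 h response minus 12 h response) was called below 0 (adjusted p under 0.05) for 5 of the 9 genes, beside 6.54% of all genes, and above 0 for 1, beside 5.79%. ID1 had the lowest, at -1.73 on the log2 scale (SE 0.15, adjusted p = 5.78e-12), and ID3 had -0.86 (SE 0.09, adjusted p = 4.06e-10). BAMBI had -0.52 (adjusted p = 0.00465), and without anti-M8nAb 24 h replicate 2 it had -0.42 (adjusted p = 0.0542). The calls of BMP2 (-0.99, adjusted p = 0.0231), ID2 (-0.63, adjusted p = 0.0199) and SMAD6 (1.00, adjusted p = 0.0237) were less firm, since each was lost with DESeq2 (adjusted p = 0.0775, 0.0576 and 0.0758 in that order) and without several single libraries. Leaving out IgG 12 h replicate 2, for instance, gave adjusted p = 0.0758 for BMP2 and 0.0944 for ID2, and leaving out IgG 12 h replicate 1 gave 0.193 for SMAD6. ID4 (-0.34, adjusted p = 0.265), BMP4 (-0.44, adjusted p = 0.252) and BMP7 (-0.09, adjusted p = 0.844) did not pass.

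The levels also moved with time within each treatment, and these comparisons share libraries with those above. In hESCs given IgG, 5 of the 9 genes were higher at 24 h than at 12 h, beside 7.01% of all genes, and 0 were lower, beside 6.64%. By edgeR at an unadjusted p under 0.05, and by DESeq2, 0 were lower as well. BMP2 rose by 0.99 on the log2 scale with time under IgG (adjusted p = 0.000685), ID1 by 0.69 (adjusted p = 1.52e-06), ID3 by 0.58 (adjusted p = 2e-09), SMAD6 by 0.68 (adjusted p = 0.0256) and BMP7 by 0.52 (adjusted p = 0.0107). The calls of SMAD6 and BMP7 were lost without IgG 12 h replicate 2 (adjusted p = 0.299 and 0.25) and without IgG 24 h replicate 2 (0.0555 and 0.0986), and that of SMAD6 also without IgG 24 h replicate 1 (0.167). BMP4 had 0.49 (adjusted p = 0.0501), at the threshold.

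In hESCs given anti-M8nAb, a comparison added after the data had been seen, 2 of the 9 genes were higher at 24 h than at 12 h, beside 16.1% of all genes, and 4 were lower, beside 15.7%. SMAD6 rose by 1.68 on the log2 scale (adjusted p = 2.45e-08) and BMP7 by 0.43 (adjusted p = 0.0213), while ID1 fell by 1.04 (adjusted p = 9.98e-10), ID2 by 0.47 (adjusted p = 0.00601), BAMBI by 0.34 (adjusted p = 0.00382) and ID3 by 0.28 (adjusted p = 0.000426). ID1 and ID3 thus moved down with time under anti-M8nAb and up under IgG, and their wider gap at 24 h holds both. BMP2, which rose under IgG, had 0.0013 (95% interval -0.45 to 0.45, adjusted p = 1.00) under anti-M8nAb. Without anti-M8nAb 24 h replicate 2 the calls of BMP7 (adjusted p = 0.19), ID2 (0.0541) and BAMBI (0.129) were lost, and without anti-M8nAb 12 h replicate 2 those of BMP7 (0.252) and ID2 (0.131).

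**Figure D3:**
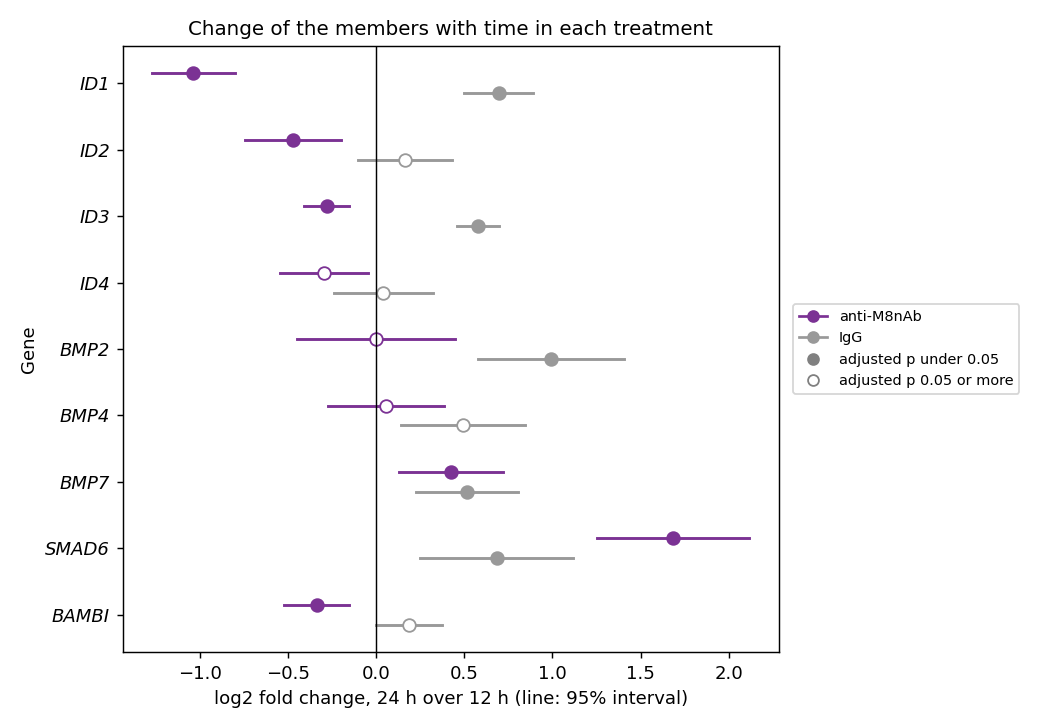
The log2 fold change of 24 h over 12 h (horizontal axis) for the 9 genes tested, within anti-M8nAb and within IgG, with lines for the 95% interval and filled points for an adjusted p under 0.05. ID1 lies at -1.04 with anti-M8nAb and at 0.69 with IgG, BMP2 lies at 0.0013 and 0.99, and SMAD6 lies right of 0 in both, at 1.68 and 0.68.

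Levels of different genes can be set side by side per length of transcript, for which the authors' FPKM (fragments scaled by transcript length and library size) served. In the anti-M8nAb 24 h libraries the order was ID3 at 49.5 ± 0.518 FPKM (SD, n = 2), BAMBI at 14.7 ± 1.59, ID1 at 10.4 ± 1.31, ID2 at 4.59 ± 0.167, ID4 at 4.14 ± 0.0695, BMP4 at 3.02 ± 0.0544, BMP7 at 2.35 ± 0.217, BMP2 at 0.994 ± 0.095, SMAD6 at 0.957 ± 0.0551 and NOG at 0.0373 ± 0.0176. Of these neighbours BMP2 and SMAD6 overlapped. In the IgG 24 h libraries ID3 came first at 119 ± 4.12 FPKM, ahead of ID1 at 50.9 ± 6.09, BAMBI at 16.6 ± 1.04, ID2 at 6.53 ± 0.387, BMP7 at 2.71 ± 0.128, BMP4 at 2.57 ± 0.185, ID4 at 2.50 ± 0.273, BMP2 at 2.04 ± 0.214, SMAD6 at 0.607 ± 0.0616 and NOG at 0.108 ± 0.0851. There BMP7, BMP4 and ID4 overlapped. ID1 thus stood below BAMBI with anti-M8nAb and above it with IgG, and ID4 stood above BMP4 and BMP7 with anti-M8nAb.

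Added up, the 4 ID genes had 88.3 and 96.0 FPKM in the anti-M8nAb 12 h libraries, against 114 and 118 in the IgG 12 h libraries, and 69.3 and 67.9 FPKM in the anti-M8nAb 24 h libraries, against 171 and 187 in the IgG 24 h libraries. ID3 made up between 63.2 and 73.4% of this sum in every library. ID1 made up 16.4 and 13.99% in the anti-M8nAb 24 h libraries, against 27.2 and 29.6% in the IgG 24 h libraries. The part of ID4 was 6.04 and 6.03% with anti-M8nAb at 24 h, against 1.35 and 1.44% with IgG, so its rise offset little of the fall of ID1 and ID3 in FPKM.

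**Figure D4:**
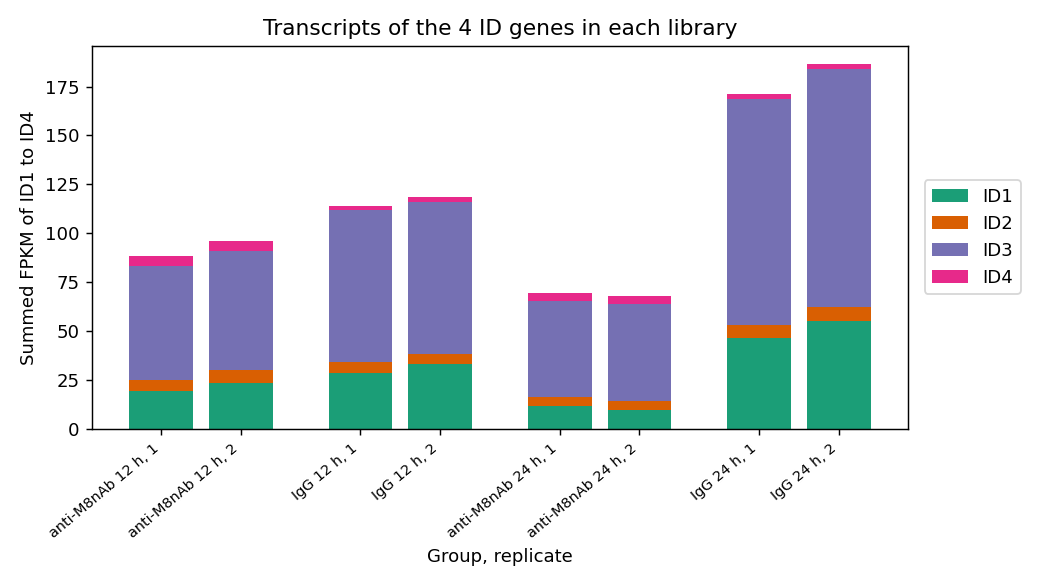
Summed FPKM of ID1, ID2, ID3 and ID4 in each library (vertical axis, from 0), with the height of each colour giving the FPKM of that gene. The anti-M8nAb 24 h bars reach 69.3 and 67.9 FPKM and the IgG 24 h bars 171 and 187 FPKM, and ID3 is the tallest part of every bar.

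The genes whose pattern over the 8 libraries lay closest to that of ID1 were sought among 12556 genes with a mean of at least 5 CPM, by the root mean square difference of centred log2 CPM. They were ZNF551 (0.163), ZNF587B (0.203), ZNF416 (0.226), COMTD1 (0.229) and ENSG00000276278 (0.235). All 5 had negative log2 fold changes, of -0.43 and -1.94 at 12 and 24 h for ZNF551, for instance. They were picked for closeness to ID1 in these same libraries, so this direction follows from the choice.

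Other genes of the pathway were read from lists by role, with the same fit and the shares of all genes given above. Of 11 further BMP and GDF ligand genes, 5 passed the filter, of which 2 rose and 1 fell at 12 h and 1 rose and 1 fell at 24 h, with medians of -0.02 and 0.43. GDF6, a ligand of joints and of the dorsal embryo, rose at both times (0.92, adjusted p = 0.0438, and 1.52, adjusted p = 0.000692). BMP8A (1.28 at 12 h, adjusted p = 0.00232) and BMP8B (-2.08 at 24 h, adjusted p = 0.00609) are close copies of each other whose reads the counting could split, so their values are uncertain.

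Of 12 receptor and co-receptor genes, 10 passed the filter. At 12 h 1 rose (BMPR1A) and 1 fell (ACVR2B), and at 24 h 3 rose and 2 fell, with medians of -0.01 and -0.0049. BMPR2, the type II receptor that BMP2, BMP4 and BMP7 share, had 48.5 and 48.8 CPM with anti-M8nAb and 28.1 and 25.9 CPM with IgG at 24 h, and rose by 0.85 (adjusted p = 7.66e-11). ACVR2B, another type II receptor, fell by 0.33 (adjusted p = 4.14e-05) and 0.32 (adjusted p = 5.43e-05).

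All 12 SMADs and regulators of SMADs passed the filter, of which 1 rose and 3 fell at 12 h and 3 rose and 2 fell at 24 h, with medians of 0.09 and 0.03. SMAD7, the other inhibitory SMAD, had 12.3 and 9.79 CPM with anti-M8nAb and 20.7 and 25.4 CPM with IgG at 24 h, and fell by 1.06 (SE 0.13, adjusted p = 1.19e-08), whereas SMAD6 rose. SMAD1, a receptor SMAD, fell by 0.52 (adjusted p = 0.000195) and 0.31 (adjusted p = 0.0182). PPM1A, a phosphatase of SMADs, rose by 0.46 at 24 h (adjusted p = 1.85e-06).

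Of 18 further genes of BMP antagonists and related modulators, 15 passed the filter. Of these, 5 rose and 1 fell at 12 h and 6 rose and 2 fell at 24 h, with medians of -0.07 and 0.19. Not all 18 encode secreted proteins or act only against BMP. CER1, an antagonist of BMP, NODAL and WNT, had 3.14 and 3.09 CPM with anti-M8nAb at 12 h, against 0.829 and 1.15 CPM with IgG. By 24 h CER1 had 8.28 and 10.6 CPM with anti-M8nAb, against 1.02 and 0.969 CPM with IgG. It rose by 1.65 (adjusted p = 1.47e-05) and 3.24 (adjusted p = 3.9e-14). GREM1, which binds BMP2 and BMP4, rose by 1.64 (adjusted p = 0.000924) and 2.05 (adjusted p = 5.71e-06). FSTL1, a follistatin-like glycoprotein, was the most abundant of those named and rose by 0.49 (adjusted p = 6.78e-12) and 1.12 (adjusted p = 1.35e-24). NBL1 fell by 1.44 (adjusted p = 5.44e-06) and 1.27 (adjusted p = 2.31e-06), and 18.6% of its exon sequence is shared with MICOS10 and MICOS10-NBL1 on its own strand.

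Of 16 genes that BMP induces in other cells, 11 passed the filter, of which 4 rose at 12 h, and 6 rose and 1 (SMAD7) fell at 24 h. The medians were 1.14 and 0.77, and most of these genes had few counts. TBX3, GATA3 and GATA2 had at most 5, 7 and 9 counts in any IgG library and passed the filter through their anti-M8nAb libraries. Genes low in every group were dropped, so the filter itself can raise these medians, and they do not describe the list as a class. TBX3, a T-box factor, had 39 and 51 counts in the anti-M8nAb 12 h libraries, against 5 and 1 in the IgG 12 h libraries, and 28 and 22 counts in the anti-M8nAb 24 h libraries, against 0 and 2 in the IgG 24 h libraries. GATA3, a factor of trophoblast, amnion and T cells, had 23 and 22 counts with anti-M8nAb at 12 h, against 1 and 4 with IgG, and at 24 h 39 and 24 counts with anti-M8nAb, against 2 and 7 with IgG. GATA2 rose by 2.05 (adjusted p = 0.00901) and 1.77 (adjusted p = 0.00904) and MSX2 by 1.55 (adjusted p = 0.025) and 1.56 (adjusted p = 0.0147). TBX3, GATA3 and GATA2 are also among the trophoblast and amnion markers below.

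Of 11 bHLH partners of ID proteins and related bHLH genes, 8 passed the filter, of which 1 rose and 2 fell at 12 h and 3 rose and 1 fell at 24 h, with medians of -0.02 and 0.18. TCF3, an E protein that ID proteins bind, had 155 and 160 CPM with anti-M8nAb and 285 and 312 CPM with IgG at 24 h, and fell by 0.74 (adjusted p = 6.27e-15) and 0.92 (adjusted p = 1.7e-18). TCF12, another E protein, rose by 0.32 at 24 h (adjusted p = 9.74e-05). BHLHE40, a repressor of the bHLH family, rose by 1.81 (adjusted p = 2.35e-13) and 2.54 (adjusted p = 1.05e-18), and 12.8% of its exon sequence overlaps BHLHE40-AS1 on the other strand.

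**Figure D5:**
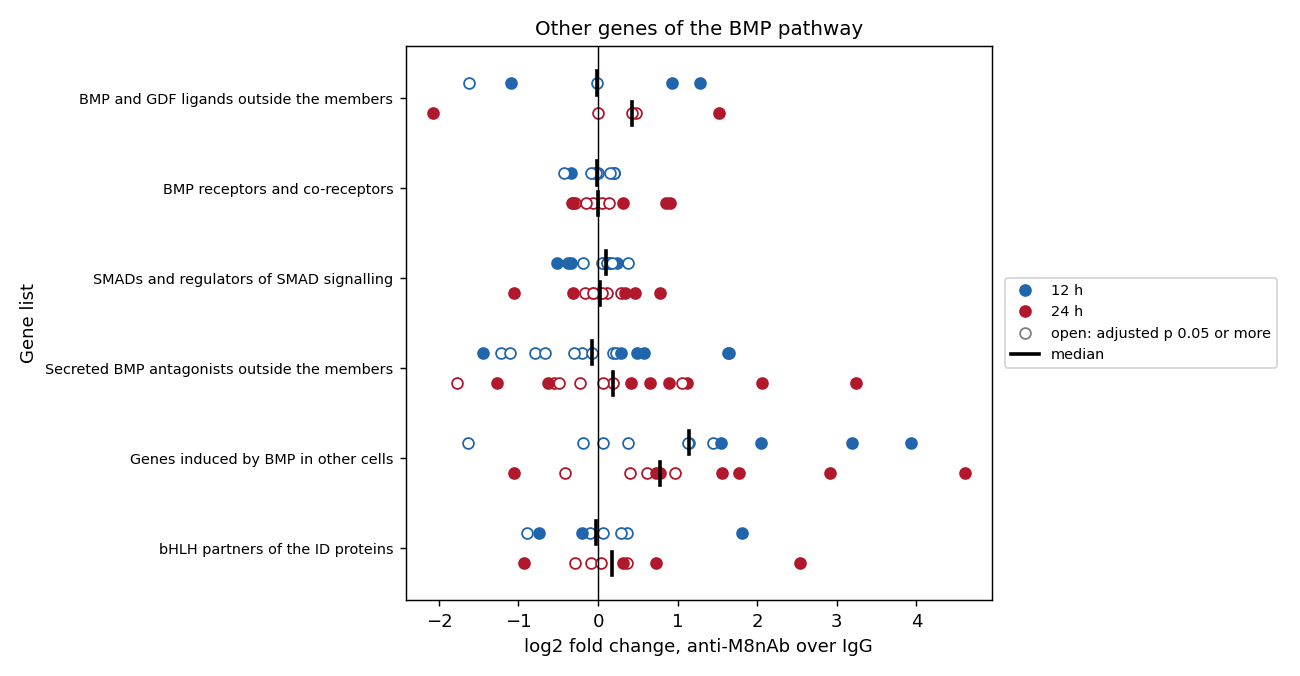
The log2 fold change of anti-M8nAb over IgG (horizontal axis) for each tested gene of 6 lists, at 12 h and at 24 h, with filled points for an adjusted p under 0.05 and a bar at the median of the list. The genes that BMP induces in other cells have medians of 1.14 and 0.77, and the medians of the other 5 lists lie between -0.07 and 0.43. The filter can raise the former, since TBX3, GATA3 and GATA2 passed it through their anti-M8nAb libraries. That list also leaves out the ID genes.

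Markers of cell types moved beside these results, and their part in them was not tested. Summed CPM of the 10 hESC markers ran from 8947 to 9036 with anti-M8nAb at 12 h, against 8011 to 8173 with IgG. By 24 h the sums were 7478 to 7739 with anti-M8nAb, against 7113 to 7165 with IgG. Of these markers 7 rose at 12 h, while at 24 h 3 rose and 3 fell. The 13 trophoblast and amnion markers summed to 35.7 to 36.0 CPM with anti-M8nAb and 32.99 to 33.5 CPM with IgG at 12 h and to 40.9 to 41.8 CPM with anti-M8nAb and 37.8 to 38.1 CPM with IgG at 24 h, with 4 of 8 tested higher at each time, 1 (KRT7) lower at 12 h, and CGA at 0 counts in all 8 libraries. TBX3, GATA3 and GATA2, each called higher at both times, passed the filter through their anti-M8nAb libraries. KRT7, the most abundant of these markers, had 14.62 and 14.61 CPM with anti-M8nAb at 12 h, against 18.4 and 19.8 CPM with IgG. At 24 h KRT7 had 17.1 and 16.3 CPM with anti-M8nAb, against 19.85 and 20.35 CPM with IgG. The 8 neuroectoderm markers summed to 292 to 310 CPM with anti-M8nAb and 233 to 243 CPM with IgG at 12 h, and to 274 to 300 CPM with anti-M8nAb and 230 to 237 CPM with IgG at 24 h, with 5 of 5 tested higher at 12 h, while at 24 h 2 were higher and 1 was lower. Most of the 24 h sum was NES, with 255 and 231 CPM with anti-M8nAb, against 168 and 176 CPM with IgG. OTX2 was lower at 24 h, with 42.3 and 40.6 CPM with anti-M8nAb, against 60.7 and 58.98 CPM with IgG. The 8 mesoderm markers summed to 41.4 to 45.3 CPM with anti-M8nAb and 38.8 to 43.9 CPM with IgG at 12 h, and to 45.1 to 48.5 CPM with anti-M8nAb and 54.6 to 58.7 CPM with IgG at 24 h. The 7 endoderm markers summed to 10.3 to 15.6 CPM with anti-M8nAb and 7.93 to 8.88 CPM with IgG at 12 h, and to 15.97 to 15.98 CPM with anti-M8nAb and 7.004 to 8.88 CPM with IgG at 24 h. The 10 fibroblast markers summed to 769 to 802 CPM with anti-M8nAb and 715 to 716 CPM with IgG at 12 h, and to 899.7 to 933 CPM with anti-M8nAb and 785 to 826 CPM with IgG at 24 h. The mesoderm sums thus overlapped at 12 h and were lower with anti-M8nAb at 24 h, and the endoderm and fibroblast sums were higher with anti-M8nAb at both times. At most 2 genes of each of these 3 lists were called in a direction at a time. Of the endoderm genes, CXCR4, a chemokine receptor, rose by 0.98 (adjusted p = 0.00391) and 1.97 (adjusted p = 3.8e-08) and AFP, the gene of alpha-fetoprotein, by 0.56 (adjusted p = 0.0383) and 1.36 (adjusted p = 9.79e-07), FOXA2, a forkhead factor, fell at 24 h (-2.03, adjusted p = 5.42e-06), and SOX17 had at most 2 counts in any library. Of the fibroblast genes, THY1, which hESCs are also known to express, rose by 0.25 (adjusted p = 6.5e-05) and 0.33 (adjusted p = 2.51e-07) and PDGFRB, a receptor for platelet-derived growth factor, by 0.38 (adjusted p = 0.0014) and 0.68 (adjusted p = 1.02e-08). COL1A2, a collagen gene, fell at both times (-0.60, adjusted p = 2.46e-07, and -1.09, adjusted p = 1.37e-14), and DCN and LUM had at most 12 and 6 counts.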

How the data were processed

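RNA sequencing of 8 libraries was analysed, grouped by the treatment and time in their titles. Reads were trimmed by the authors (Trimmomatic), placed on GRCh38.p14 by 2-pass STAR, cleared of duplicates (Picard) and assigned to Ensembl genes by HTSeq, and the submitters' notes also name FastQC 0.11.9 and GATK. The authors deposited counts per gene and a separate set of FPKM from RNAnorm. Whether the counting used strand is not given in the sources used here. Left unused were 4 columns of each file that match no label. Lines with a blank name, 1005 in the count table, take 53.3 to 54.1% of a library and were left out. Removing duplicates lowers the counts of abundant genes more than those of rare ones.

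The 10 genes, the gene lists and the tests were chosen with earlier results of these data known. Genes were kept by edgeR's filter by group, which left 20165. TMM-scaled counts of all 8 libraries entered a single edgeR fit (version 4.0.16, R 4.3.3) of 4 group means. Two-sided quasi-likelihood F tests compared the groups, with Benjamini-Hochberg adjustment over all genes, called at an adjusted p under 0.05, and counted also at a log2 fold change of at least 1. The common biological coefficient of variation was 5.53%, and 4 residual degrees of freedom remained. CPM use TMM-scaled library sizes. Lists were described by counts and medians, with no set test. Of each list at most the 4 genes with the smallest p at each time were named, with MFGE8 and the 5 genes nearest to ID1 (prior count 2), and further genes named for a count of 5 or fewer, a marker check or a level at 0 were chosen after their values were seen. Motifs were sought on both strands of 250 bases before RefSeq starts. Alternatives were DESeq2 1.42.0 and its size factors, other filters, each time alone, limma 3.58.1 on FPKM with a pseudocount of 1 or 0.1 (all genes, or those averaging 0.5 FPKM or more), a replicate block and each library left out. Positions are from a GENCODE annotation of GRCh38.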

Additional observations from a re-analysis of the deposited data

Results flagged for a closer look

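For 6 of the 9 genes tested, the response to anti-M8nAb at 24 h differed from that at 12 h by edgeR's test of the difference itself (adjusted p under 0.05). The difference was below 0 for 5 of them, beside 6.54% of all genes, and above 0 for 1, beside 5.79%. On the log2 scale, 24 h minus 12 h, the differences were -1.73 for ID1, -0.63 for ID2, -0.86 for ID3, -0.99 for BMP2, 1.00 for SMAD6 and -0.52 for BAMBI. As given above, the calls of BMP2, ID2 and SMAD6 were lost with DESeq2, and the difference of BAMBI was smaller without anti-M8nAb 24 h replicate 2. The 2 libraries of a group are too few for a check of single libraries that stand apart from their group.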

How the results depend on the processing

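The fall of ID1 and ID3 and the rise of ID4 at 24 h kept their direction and an adjusted p under 0.05 in every alternative fit. With a change of at least 2-fold required as well, the rise of ID4 at 24 h did not pass (0.82 on the log2 scale). The counts of genes called moved more. With all genes kept and log2(FPKM + 1), 1 rose and 1 fell at 12 h, 1 rose at 24 h, 0 had a higher and 2 a lower response at 24 h than at 12 h, 1 rose with time under IgG, and 1 rose and 2 fell with time under anti-M8nAb. With the filter on FPKM kept, log2(FPKM + 1) and log2(FPKM + 0.1) each gave 1 higher at 24 h, 0 with a higher later response, 3 higher with time under IgG and 1 higher with time under anti-M8nAb, and log2(FPKM + 0.1) gave 2 with a lower later response. With DESeq2 or with no filter on low counts, 0 had a higher and 3 a lower later response and 1 rose with time under anti-M8nAb, and with no filter 3 rose with time under IgG. Past 2-fold, 1 rose and 0 fell at 12 h, and 0 rose and 2 fell at 24 h. Counts over all genes moved too. With all genes kept and log2(FPKM + 1), 210 of 41621 genes had a higher and 244 a lower later response. With no filter the counts were 561 and 667 of 41621, and with DESeq2 842 and 913 of 14992. The main fit had 1167 and 1319 of 20165. The cause of these shifts was not tested. BMP2 at 12 h, near 0, changed sign on FPKM (-0.0097 with a pseudocount of 1, filtered or not, and -0.018 with 0.1), as it did with time under anti-M8nAb with no filter (-0.0044).

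Leaving out 1 library at a time gave 1 to 2 genes lower at 12 h, 0 to 1 with a higher and 3 to 4 with a lower later response, 3 to 6 higher with time under IgG, and 1 to 2 higher and 2 to 5 lower with time under anti-M8nAb. The number of all genes called also moved between these fits, each of which left 1 library in a group. Whether the counts given here only followed that number was not tested. Values near 0 changed sign: BMP2 at 12 h (-0.0086 to 0.10) and with time under anti-M8nAb (-0.10 to 0.097), BMP7 at 12 h (-0.19 to 0.14) and in the difference of responses (-0.26 to 0.070), BAMBI at 24 h (-0.19 to 0.024) and ID4 with time under IgG (-0.067 to 0.16).

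The replicate numbers were not taken to pair libraries, since same-numbered libraries did not deviate together (correlations of -0.0025 at 12 h and -0.024 at 24 h over 20165 genes). With a replicate block, 3 genes rose and 2 fell at 12 h, 2 rose and 4 fell at 24 h, and no call of the 9 genes changed. Of all 20165 genes, the block called 3161 up and 3260 down at 12 h, and 4234 up and 4262 down at 24 h. Over all genes, the FPKM fits moved the balance of calls: log2(FPKM + 1) with the filter found 1550 genes up and 2881 down at 12 h, with 2334 up and 4319 down at 24 h, against 3196 and 3300, and 4270 and 4296, with edgeR on counts. Genes with few counts, such as NOG, limit what this depth can show.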
